A study of Mus musculus with 24 samples.

Results

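The comparison described here set macrophages given lipopolysaccharide (LPS) against macrophages given interferon gamma (IFNg), both of wild-type (WT) genotype. It held 6 of the 24 libraries of the series, 3 from LPS-treated and 3 from IFNg-treated cells, chosen by their treatment label alone. The cells were bone marrow-derived macrophages (BMDMs), cultured from the marrow precursors of C57BL/6 mice at postnatal week 10, and RNA sequencing measured their gene expression. A further 3 untreated WT libraries (control) gave the starting level, and 6 libraries of macrophages lacking CITED2 (KO), a transcriptional co-regulator, gave the same LPS and IFNg comparison in libraries of the other genotype. The labels did not give the dose or the length of either treatment, the way CITED2 was removed, or whether each replicate was a separate animal or culture, and p-values therefore measure the spread between these libraries. Of 43629 gene identifiers in the table, 18637 had a value of at least 1 in 3 or more of the 24 libraries and were compared; 15539 would have passed on the 6 libraries alone.

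LPS is a cell wall component of Gram-negative bacteria. It is bound by Cd14 and the Tlr4 receptor, and its signal passes through the adaptors Myd88 and Ticam1 to the NF-kB and AP-1 factors and to Irf3, which switches on interferon beta and, through it, the genes answering type I interferon. IFNg is the cytokine of activated T and NK cells. Its receptor works through the Janus kinases Jak1 and Jak2 and leads to binding at a DNA element called GAS, while the complex that forms with Stat2 and Irf9 after type I interferon binds the element called ISRE. Both agents are used for classical activation of macrophages, and the comparison addresses what separates them.

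The deposited values are read counts divided by 1 scaling factor per library and are called normalised read counts below. Reads per library ranged from 7921412 in LPS replicate 1 to 73409343 in IFNg replicate 3, so that 1 read was worth 4.08 in the shallowest and 0.355 in the deepest of the 6 libraries. Means are given ± SD over the 3 libraries of a group. Differences are those of log2(value + 1), LPS minus IFNg, ± SE, from a limma fit of all 24 libraries. The SE and p therefore draw on the spread within all groups, those of IL4-treated and untreated KO cells included. Calls were made where the Benjamini-Hochberg adjusted p was below 0.05. On this scale the difference of low genes is understated. In a principal component analysis of the 10512 genes with reads in every library, the first component held 90.8% of the variance of the 6 libraries and set the 3 LPS libraries apart from the 3 IFNg libraries. Summed over 10 macrophage markers, the level ranged from 216008 to 227538 with LPS and from 210126 to 217013 with IFNg. Markers of T and NK cells summed to between 584 and 628 with LPS and between 646 and 679 with IFNg, nearly all of it Lck, which had 543 ± 27.5 with LPS, 614 ± 16.5 with IFNg and 8.87 ± 1.47 in control cells. Fewer cells of a kind and less RNA per cell cannot be told apart in such bulk samples.

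Of the 18637 genes, 3586 were called higher with LPS than with IFNg (19.2%) and 3544 lower (19.0%), together 38.3%. The split depends on scaling, because the values summed to more per library with LPS (31791425 to 33267115) than with IFNg (25510874 to 26196230). With every library scaled to the same total, 2129 genes were called higher and 6207 lower, and the median difference of all genes moved to -0.29, against -0.035 as deposited. A difference of at least 1 (log2) was called higher for 1516 genes (8.13%) and lower for 1391 (7.46%), and one of at least 5 for 46 genes higher and 24 lower. The LPS and IFNg libraries did not overlap for 9118 genes (48.9%). Against untreated cells, 53.3% of all genes were called with LPS and 45.1% with IFNg. Counts of list members below are to be read beside the 19.2% of all genes called higher with LPS than with IFNg and the 19.0% called lower. Of 14167 protein-coding genes, 3395 were called higher and 3250 lower in that comparison. The plot of difference against level shows that large differences were found at low and at high counts on both sides.

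**Figure D1:**
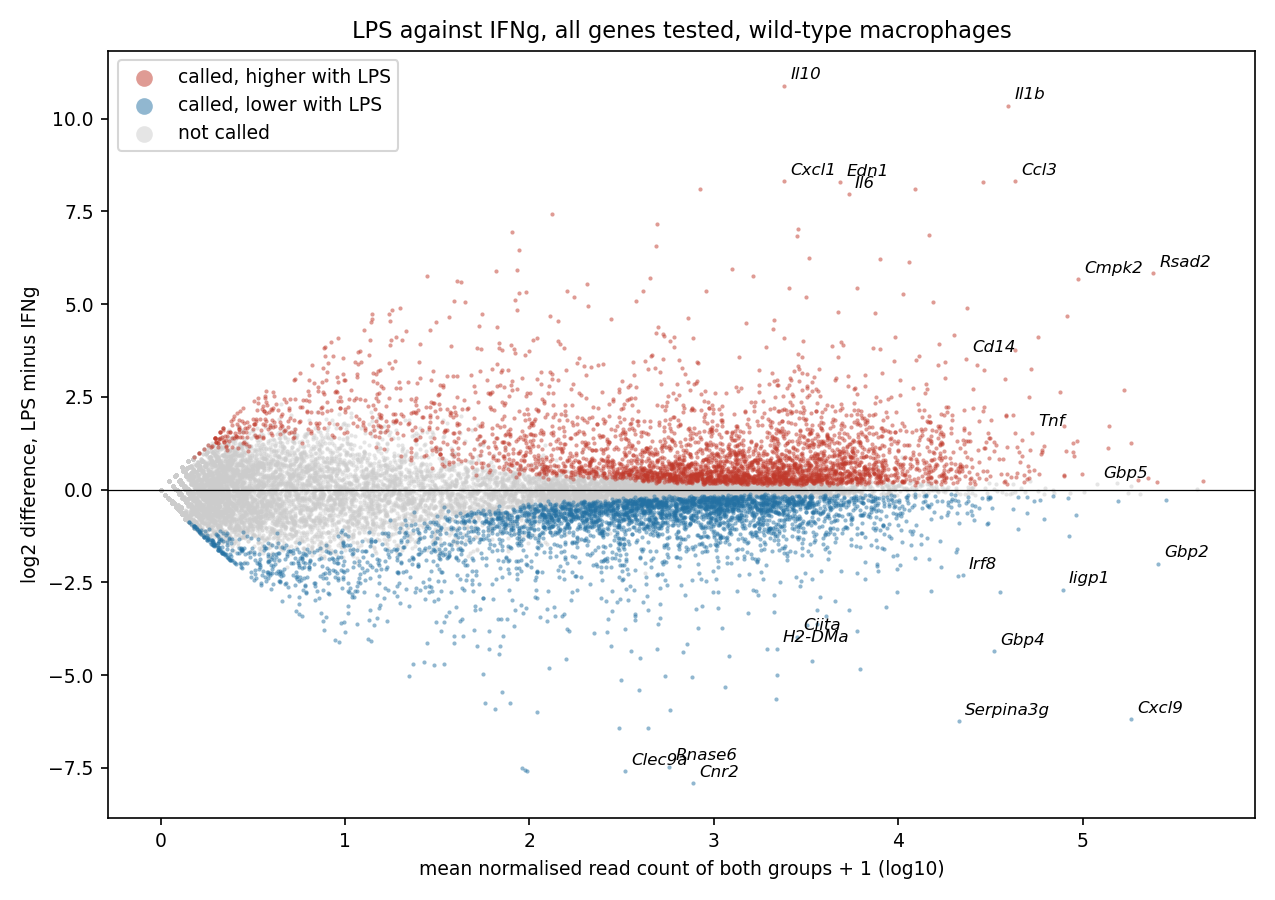
Each point is 1 of the 18637 genes compared in WT macrophages; the horizontal axis gives the log10 of its mean normalised read count over the LPS and IFNg libraries plus 1, the vertical axis its log2 difference, LPS minus IFNg. The 3586 genes called higher with LPS are red, the 3544 called lower are blue, and genes in grey were not called; Il10 and Il1b stand highest, and Cxcl9 and Gbp2 are genes of high counts on the IFNg side.

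The cytokine genes that Toll-like receptors switch on had the largest median difference towards LPS among the pathway lists. Of 28 tested, 24 were higher with LPS (an adjusted p below 0.05, which 38.3% of all genes had in either direction and 19.2% in this one) and the other 4 were not called, with a median difference of 3.00 against -0.035 over all genes. Il1b, which encodes the fever-inducing cytokine cleaved by caspase 1 (ENSMUSG00000027398, chromosome 2, bases 129364570 to 129371139, minus strand, on build GRCm38 like all positions here), had values of 78724, 80185 and 78569 with LPS, against 54.7, 65 and 59.7 with IFNg. Every LPS library lay far above every IFNg library, and control cells had 23.9 ± 17.6. The difference was 10.35 ± 0.32 (adjusted p = 1.97e-18, limma), a 1324-fold ratio of means. Il1a, the second agonist of the same receptor, had 24467 ± 1378 with LPS and 87.8 ± 11.7 with IFNg, and Il1rn, which encodes the antagonist of that receptor, had 85896 ± 5179 with LPS and 38092 ± 2450.4 with IFNg, so the agonist and antagonist genes differed by 10.35 and 1.17.

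Il10, the main cytokine that restrains macrophage activation (ENSMUSG00000016529, chromosome 1, bases 131019845 to 131024974, plus strand), gave 4672, 4458 and 5352 with LPS, against 2.69, 2.28 and 0.355 with IFNg. The IFNg value rests on 8 reads in all 3 libraries. Control cells had 9.17 ± 4.05, and the difference between LPS and IFNg was 10.89 ± 0.48 (adjusted p = 2.01e-15). Il6, which drives the acute-phase response, had 10505, 10163 and 11491 with LPS, against 35, 46.7 and 45.5 with IFNg, and control cells had 4.23 ± 4.8. Its difference was 7.96 ± 0.48 (adjusted p = 8.07e-13). Edn1, which encodes the vasoconstrictor endothelin, differed by 8.28, with 9686 ± 491 with LPS and 30.4 ± 5.17 with IFNg.

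Other members had high levels with both agents. Tnf, the gene of tumour necrosis factor, had 78574 ± 2179.7 with LPS, 27086 ± 835 with IFNg and 192 ± 30.2 in control cells, a difference of 1.54 ± 0.09. Il12b, which encodes the subunit shared by the T cell-polarising cytokines made with Il12a and Il23a, had 13619, 13360.1 and 13864 with LPS, against 7316, 7071 and 7935 with IFNg; the groups did not overlap, yet the difference of 0.87 ± 0.48, whose SE comes from the spread of all 24 libraries, was not called (adjusted p = 0.17). It was called higher when only the 6 libraries were fitted, with a pseudocount of 8, and with edgeR or DESeq2 on the recovered reads, the adjusted p over all alternatives lying between 3.11e-32 and 0.443. The partner subunits were less even: Il12a had 338 ± 19.8 with LPS and 8.29 ± 1.57 with IFNg, and Il23a had 36.7, 31.7 and 28.6 with LPS, against 1 read in the 3 IFNg libraries. Il15 and Il18, which act on T and NK cells, were higher with LPS by 3.47 and 2.67. Ifnb1, the interferon beta gene itself, was low in both groups, 31.4 ± 11.9 with LPS and 15.9 ± 2.51 with IFNg, and was not called (adjusted p = 0.116), although it was called higher with a pseudocount of 8, with edgeR, with DESeq2 and with library weights.

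The promoters of Il6 and Cxcl1 are shown because each holds a match to the binding consensus of NF-kB, the factor downstream of the LPS receptor; the stretches are the 250 bases before the RefSeq start of each gene (build GRCm38.p6, 5′ to 3′ on the gene's strand), chr5:30012864-30013113 on the plus strand and chr5:90890995-90891244 on the plus strand, with the match in capitals. The Cxcl1 capitals are 2 overlapping matches of opposite strand that begin 71 and 70 bases before the start, and the Il6 match begins 44 bases before it.
Il6: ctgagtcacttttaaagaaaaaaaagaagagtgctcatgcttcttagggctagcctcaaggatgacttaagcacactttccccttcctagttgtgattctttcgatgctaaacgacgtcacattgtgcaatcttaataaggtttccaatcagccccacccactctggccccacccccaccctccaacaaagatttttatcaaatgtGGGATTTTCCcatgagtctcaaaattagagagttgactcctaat
Cxcl1: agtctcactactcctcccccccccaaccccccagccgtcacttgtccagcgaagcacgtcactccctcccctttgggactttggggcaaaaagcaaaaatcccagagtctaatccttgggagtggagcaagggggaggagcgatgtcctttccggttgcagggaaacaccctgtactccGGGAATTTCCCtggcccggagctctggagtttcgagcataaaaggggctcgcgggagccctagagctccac

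**Figure D2:**
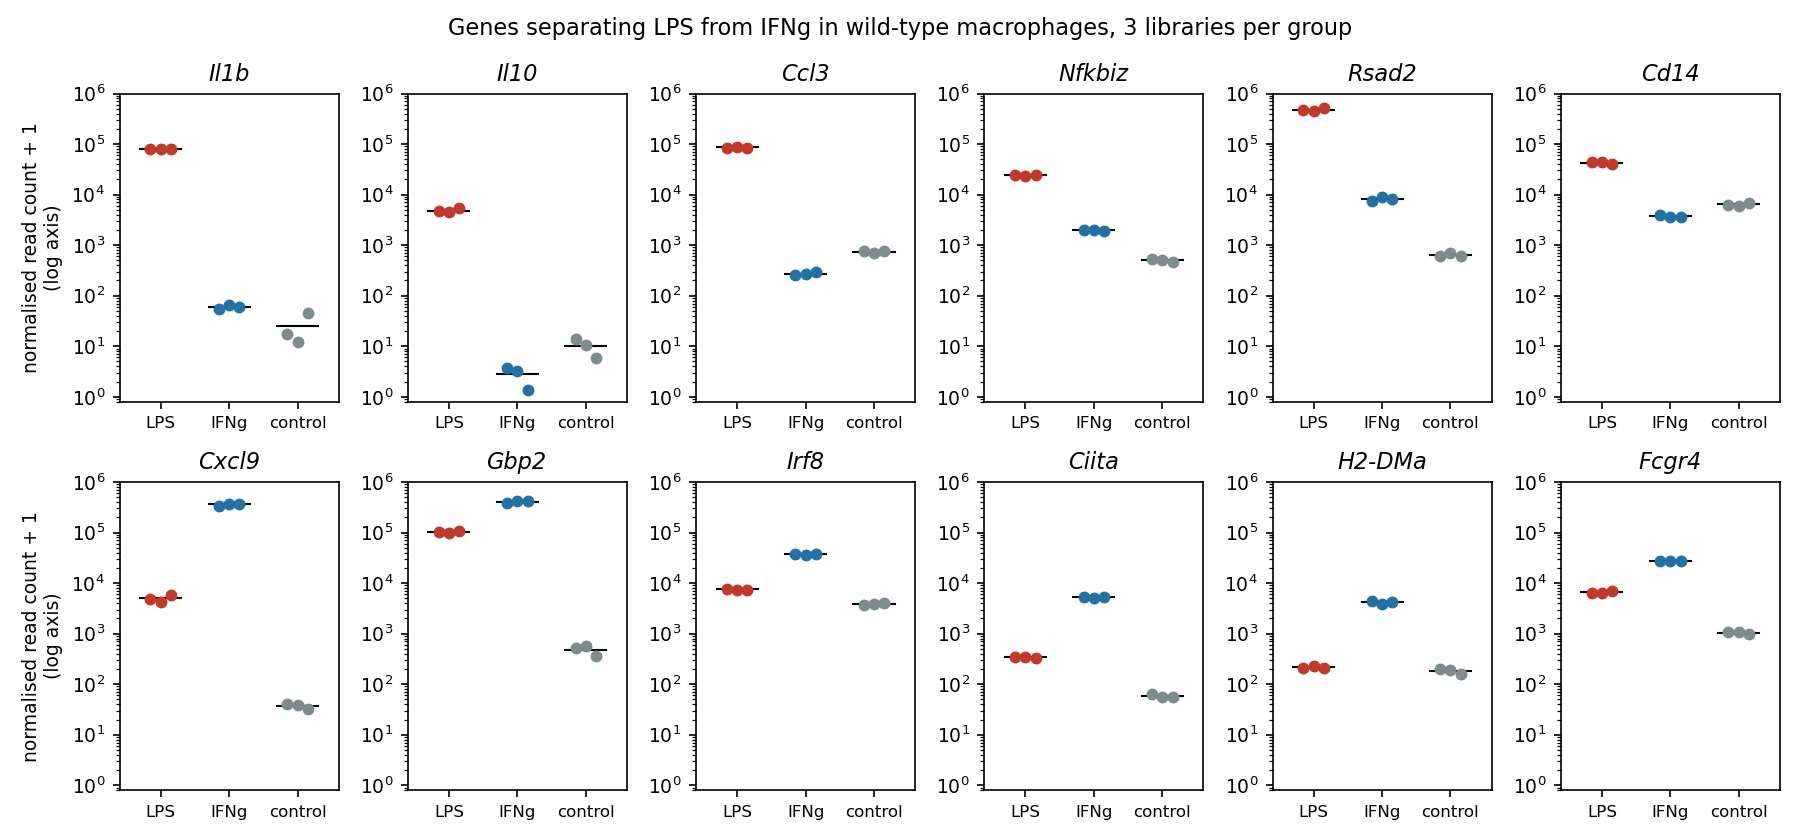
Normalised read count plus 1 on a log axis for 12 genes in the 3 LPS, 3 IFNg and 3 control libraries of WT macrophages; each point is a library and each line a group mean. In the top row the LPS libraries lie above the IFNg libraries and in the bottom row below them, with no overlap in any panel.

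The NF-kB pathway's own genes leaned the same way. Of 22 subunit and regulator genes, 20 were higher with LPS and 2 were not called, with a median of 1.21. Nfkbiz, an inhibitor-like protein that NF-kB needs at a subset of its targets, led with 24381, 23073 and 24279 with LPS, against 1985, 1980.2 and 1914 with IFNg, a difference of 3.61 ± 0.07 (adjusted p = 3.57e-22). Zc3h12a, an RNase that degrades cytokine transcripts, and Tnip1, an adaptor that limits the signal, differed by 2.73 and 2.51. Nfkbia, the classical inhibitor that holds the factor in the cytoplasm, had 30797 ± 719 with LPS, 6627 ± 109 with IFNg and 699 ± 48.7 in control cells. The subunit genes Nfkb1, Nfkb2 and Rela differed by 1.30, 1.73 and 1.04. The genes not called were Birc3, a ubiquitin ligase, with 8913 ± 450.1 with LPS and 9419 ± 282 with IFNg, and Cyld, a deubiquitinase, with 4067 ± 345 with LPS and 4584 ± 220.2 with IFNg. Cyld stayed uncalled in 8 of 18 alternatives and was called lower in the other 10, and Birc3 was called lower with library weights and under equal totals.

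Chemokine genes lay mostly on the LPS side. Of 13 CC chemokine genes, 11 were higher with LPS and 1 lower (median 2.22), and of 12 CXC chemokine genes, 7 were higher and 2 lower (median 1.15). Ccl3, a macrophage inflammatory chemokine and ligand of Ccr1 (ENSMUSG00000000982, chromosome 11, bases 83647844 to 83649355, minus strand), had 84952, 89194 and 83637 with LPS, against 254, 267 and 291 with IFNg. Control cells had 738 ± 35.1, which lies between the groups: Ccl3 was 6.86 above control with LPS (adjusted p = 2.18e-28) and -1.45 relative to control with IFNg (adjusted p = 3.77e-15). Ccl4, its neighbour and close relative, had 57586 ± 762 with LPS, 182 ± 14.9 with IFNg and 364 ± 41.4 in control cells, the same order. The monocyte attractants Ccl2 and Ccl7 differed by 5.05 and 6.15, and the neutrophil attractants Cxcl1, Cxcl2 and Cxcl3 by 8.31, 6.85 and 8.10; Cxcl1 had 4764 ± 268 with LPS and 14.1 ± 1.86 with IFNg.

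The ligands of Cxcr3, the receptor of activated T cells, did not move together. Cxcl9 (ENSMUSG00000029417, chromosome 5, bases 92321347 to 92328079, minus strand) had 4859, 4216 and 5902 with LPS, against 339312, 374260.2 and 370959.9 with IFNg, a 72.4-fold higher mean with IFNg and a difference of -6.19 ± 0.30 (adjusted p = 1.39e-14). Control cells had 36.2 ± 3.88, so Cxcl9 was above control with both agents, by 7.06 with LPS and 13.25 with IFNg. Cxcl10 went the other way, with 211893 ± 12283 with LPS and 64504 ± 2132 with IFNg, and Cxcl11, with 2034 ± 529 with LPS and 1856 ± 161 with IFNg, was not called (adjusted p = 0.857, interval -0.58 to 0.79). Ccl8, a monocyte attractant, was the CC chemokine gene lower with LPS, at 738 ± 67.7 with LPS and 2717 ± 200.2 with IFNg. Ccl5, a T cell attractant made in answer to interferons and NF-kB, had 47938 ± 2741 with LPS, 10329 ± 969 with IFNg and 34.3 ± 11.2 in control cells.

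Genes of the type I interferon response were higher with LPS in 38 of 40 cases, the remaining 2 not being called, with a median of 1.72. Rsad2, which encodes the antiviral enzyme viperin (ENSMUSG00000020641, chromosome 12, bases 26442746 to 26456452, minus strand), had 465551, 441718 and 509556 with LPS, against 7565, 9159 and 8166 with IFNg, a 56.9-fold ratio,. Its difference was 5.83 ± 0.09 (adjusted p = 4.01e-24), and control cells had 635 ± 58.1. Its neighbour Cmpk2, a mitochondrial nucleotide kinase, had 184935 ± 15405 with LPS and 3628 ± 217 with IFNg. The RNA-binding proteins Ifit3 and Ifit1 differed by 4.90 and 4.68, the dynamin-like GTPases Mx2 and Mx1 by 4.12 and 3.77, and the RNA sensors Ddx58 and Ifih1 by 3.35 and 2.98. Isg15, a ubiquitin-like modifier, had 32056 ± 275 with LPS, 3971 ± 248 with IFNg and 149.6 ± 24.3 in control cells, and Usp18, the protease that removes it, differed by 3.45.

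These genes were also above control with IFNg: the list's median difference from control was 6.02 with LPS and 3.27 with IFNg, against -0.062 and 0.00 over all genes. Of the members not called, Zbp1, a sensor of Z-form nucleic acids, had 18458 ± 279 with LPS and 18227 ± 241 with IFNg, and the 95% interval of its difference was -0.12 to 0.16; over 18 alternatives the difference ranged from -0.31 to 0.027. Stat2, which takes part in the type I response, had 23975 ± 623 with LPS and 9919 ± 444 with IFNg, a difference of 1.27 ± 0.06.

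The 250 bases before the start of Isg15, chr4:156200819-156201068 on the minus strand, are shown because they hold a run of 3 overlapping matches to the ISRE letters (GAAA, any 2 bases, GAAA), which begin 78, 72 and 66 bases before the start and are in capitals.
Isg15: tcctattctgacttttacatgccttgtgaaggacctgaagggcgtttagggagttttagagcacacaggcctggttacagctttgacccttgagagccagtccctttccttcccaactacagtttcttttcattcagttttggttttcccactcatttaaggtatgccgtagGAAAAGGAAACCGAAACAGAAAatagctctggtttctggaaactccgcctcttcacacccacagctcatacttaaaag

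The guanylate-binding proteins and p47 GTPases, which attack the membranes around intracellular pathogens, were strongly present with both agents and leaned to IFNg. Of 19 tested, 12 were lower with LPS and 3 higher, with a median of -1.30; their median difference from control was 6.38 with LPS and 7.92 with IFNg. Gbp2 (ENSMUSG00000028270, chromosome 3, bases 142620602 to 142638008, plus strand) had 102037, 99162 and 107277 with LPS, against 388902, 421762 and 417383 with IFNg, and control cells 479 ± 107. The groups did not overlap, and the difference was -1.99 ± 0.10 (adjusted p = 3.23e-14). Its neighbours in the chromosome 3 cluster differed from it: the gene listed as Gbp5, whose identifier GENCODE M21 names Gbp2b, had 126411 ± 8829 with LPS and 113483 ± 3612 with IFNg and was not called (adjusted p = 0.374), and Gbp3 was slightly higher with LPS at 51577 ± 2201 with LPS and 44527 ± 1770.4 with IFNg, a call (adjusted p = 0.0397) kept in 7 of 18 alternatives, with a direction that turned under equal totals. In the chromosome 5 cluster, Gbp4 and Gbp8 were lower with LPS by larger steps, -4.36 ± 0.26 and -5.04 ± 0.28; Gbp4 had 3111 ± 500.4 with LPS and 63349.9 ± 2313 with IFNg.

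Among the p47 GTPases, the effector Iigp1 had 19485, 18291 and 25051 with LPS, against 125993, 142759.8 and 134834 with IFNg, a difference of -2.70 ± 0.23. The regulators Irgm1, Irgm2 and Igtp lay closer, with differences of -0.32, 0.37 and 0.28; under equal totals Irgm2 was no longer called (0.042) and Igtp turned to -0.046. Tgtp1 differed by -4.29, but it shares most of its sequence with Tgtp2, and how the counting split reads between such copies is not given in the sources used here. The same holds for the near-identical members of the Gbp, H2 and Oas families.

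Genes for antigen presentation by MHC class II were on the IFNg side. Of 13 tested, 9 were lower with LPS and the others were not called, with a median of -1.86. Ciita, the master activator of the class (ENSMUSG00000022504, chromosome 16, bases 10480059 to 10528418, plus strand), had 346, 337 and 331 with LPS, against 5361, 5142 and 5363 with IFNg, a 15.6-fold higher mean with IFNg (difference -3.96 ± 0.09, adjusted p = 1.62e-20). Control cells had 56.8 ± 5.46. H2-DMa, a chain of the peptide editor, had 208, 225 and 206 with LPS, against 4417, 3900.5 and 4199 with IFNg, while control cells had 180.1 ± 18.9, so the LPS libraries lay 0.25 from control and the IFNg libraries 4.53. The chains that hold the peptide, H2-Aa, H2-Ab1 and H2-Eb1, differed by -2.20, -2.18 and -1.84, and Cd74, the chaperone that fills the groove, had 6337 ± 309 with LPS, 23066 ± 952 with IFNg and 3093 ± 254 in control cells. Ctss, the protease that trims Cd74, had 189707 ± 6914 with LPS and 177106 ± 8379 with IFNg and was not called. Its result changed with DESeq2 and under equal totals, and over 18 alternatives the difference ranged from -0.22 to 0.12.

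MHC class I genes separated the agents little. Although 14 of 21 were higher with LPS and 6 lower, the median was 0.26, and it turned to -0.062 under equal totals. B2m, the light chain, had 140370.1 ± 12969.9 with LPS and 172196 ± 7129 with IFNg, and Nlrc5, the class I activator, had 20062 ± 685 with LPS and 14795 ± 302 with IFNg, a difference of 0.44 ± 0.06. Under equal totals Nlrc5 was no longer called (0.12). The member furthest towards LPS was H2-T22, a non-classical heavy chain, at 1.80, and the members furthest towards IFNg were Tapbpl and Erap1, which edit and trim peptides, at -0.75 and -0.74.

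**Figure D3:**
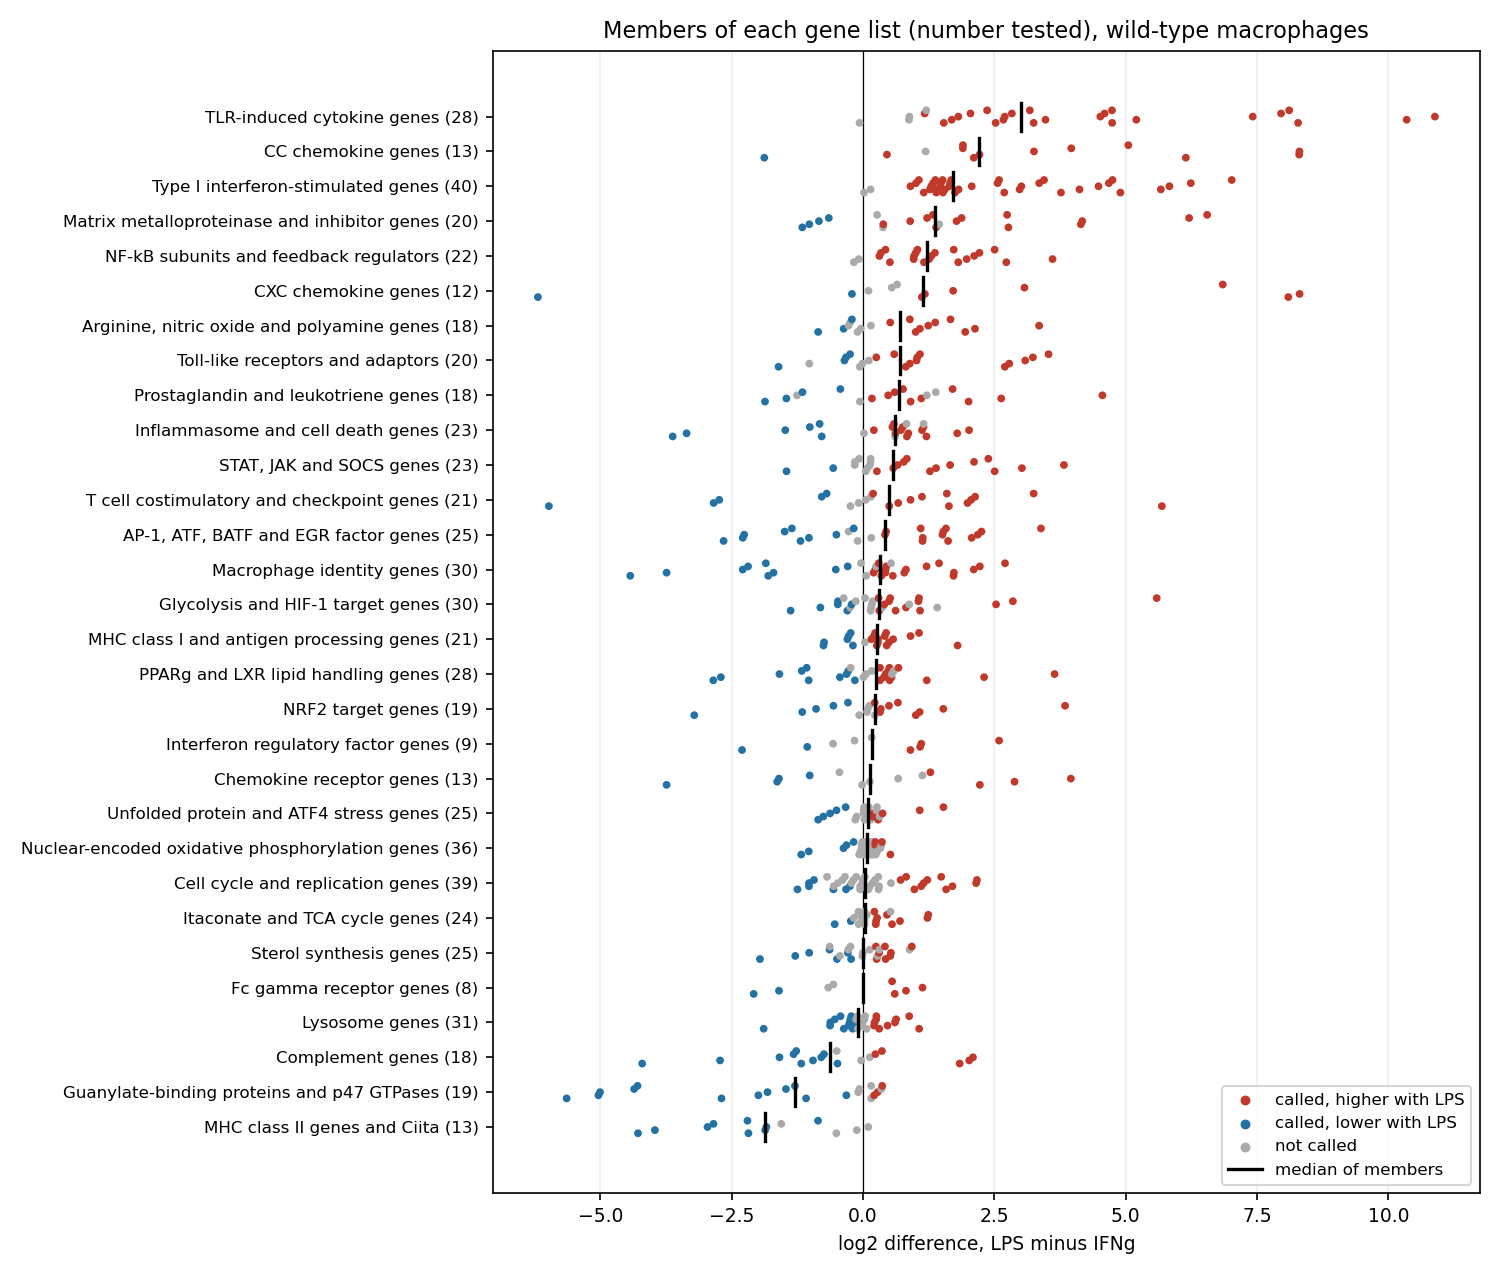
Each row is a gene list, with the number of members tested in brackets; each point is a member at its log2 difference, LPS minus IFNg, in WT macrophages, and the black line is the list's median. Cytokine, chemokine and type I interferon genes lie to the right (medians of 3.00, 2.22, 1.15 and 1.72) and complement, guanylate-binding and MHC class II genes to the left (medians of -0.62, -1.30 and -1.86), while the lists near 0 hold members on both sides.

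The transcription factors of the interferon response were divided. Irf1, which relays IFNg to MHC and Gbp genes (ENSMUSG00000018899, chromosome 11, bases 53770014 to 53778374, plus strand), had 28217, 28960.5 and 29552 with LPS, against 60134, 59320.3 and 61606 with IFNg, and control cells 1639 ± 163. The groups did not overlap and differed by -1.06 ± 0.06 (adjusted p = 6.63e-14). Irf8, a lineage factor of monocytes and dendritic cells (ENSMUSG00000041515, chromosome 8, bases 120736358 to 120756694, plus strand), had 7757, 7449 and 7357 with LPS, against 37819.9, 36113 and 37519 with IFNg, a difference of -2.30 ± 0.05 (adjusted p = 1.16e-20); control cells had 3819 ± 177. Irf7, the amplifier of type I interferon, went the other way with 23917 ± 2009.6 with LPS, 3964 ± 145 with IFNg and 311 ± 63.9 in control cells. Of the 9 factors of this family tested, 4 were higher with LPS and 2 lower, and the sign of the family's median changed with scaling (0.16 as deposited and -0.16 under equal totals).

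The 250 bases before the starts of Irf1 (chr11:53769764-53770013, plus strand) and Irf8 (chr8:120736108-120736357, plus strand) are shown because both hold the GAS letters TTCNNNGAA. In Irf1 the GAS match begins 90 bases before the start and the second run of capitals, 13 bases before it, is a match to the NF-kB consensus. In Irf8 both runs of capitals are GAS matches, at 171 and 153 bases before the start.
Irf1: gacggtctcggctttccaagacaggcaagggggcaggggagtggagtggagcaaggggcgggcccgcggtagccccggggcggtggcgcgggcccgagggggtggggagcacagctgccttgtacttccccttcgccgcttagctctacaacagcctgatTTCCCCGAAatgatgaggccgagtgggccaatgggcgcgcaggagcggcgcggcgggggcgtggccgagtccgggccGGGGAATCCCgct
Irf8: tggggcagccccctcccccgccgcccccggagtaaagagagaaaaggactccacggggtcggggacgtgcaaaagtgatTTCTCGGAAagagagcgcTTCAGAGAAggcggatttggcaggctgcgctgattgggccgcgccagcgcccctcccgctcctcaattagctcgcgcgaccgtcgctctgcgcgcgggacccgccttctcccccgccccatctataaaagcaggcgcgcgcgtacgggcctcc

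Feedback inhibitors of cytokine receptors differed in direction. Socs1, which blocks the Janus kinases of the IFNg receptor, had 493, 575 and 541 with LPS, against 1776, 1369 and 1312 with IFNg, while Socs3, which blocks the signal of Il6-type receptors, had 31291, 30911 and 25470.0 with LPS, against 9845, 8697 and 9159 with IFNg. The differences were -1.46 ± 0.22 and 1.66 ± 0.10, with control at 4.76 ± 2.08 and 33.4 ± 4.39. Socs2 and Cish, known targets of Stat5, were higher with LPS by 3.82 and 2.39, as was Stat5a itself, with 6192 ± 286 with LPS and 760.1 ± 33 with IFNg. In the receptors' own machinery, Jak2 had 47007 ± 4066 with LPS and 10849.6 ± 503 with IFNg, Ifnar1 had 12894 ± 288 with LPS, 2270.0 ± 71.2 with IFNg and 2733 ± 142 in control cells, and Ifngr1 had 2796 ± 148 with LPS and 2699.5 ± 153 with IFNg and was not called. Under equal totals Ifngr1 was called lower (-0.27). Of 23 genes of this list, 13 were higher with LPS and 2 lower (median 0.57).

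Among 25 stimulus-response factors of the AP-1, ATF, EGR and C/EBP kinds, 13 were higher with LPS and 9 lower. Cebpb, a partner of NF-kB at cytokine promoters, had 3002 ± 243 with LPS and 715 ± 60.9 with IFNg, and Fosl2 and Junb, AP-1 subunits, were higher with LPS by 2.25 and 1.51. On the IFNg side, Batf2 had 3752 ± 179 with LPS, 10562 ± 560.3 with IFNg and 79.9 ± 8.45 in control cells and Batf3, a factor of cross-presenting dendritic cells, had 10.8 ± 1.36 with LPS, 73.3 ± 4.2 with IFNg and 16.7 ± 13.1 in control cells. Cebpa, a myeloid lineage factor, had 166 ± 14.9 with LPS, 816 ± 63.6 with IFNg and 2127 ± 125 in control cells, so that it was below control with both agents and further so with LPS.

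Genes of Toll-like receptors, their co-receptors and their signalling adaptors were mostly higher with LPS, in 12 of 20 genes against 4 lower (median 0.70). Cd14, the co-receptor for LPS, had 43739.9, 44208 and 40366 with LPS, against 3919, 3554 and 3618 with IFNg, with control between them at 6393 ± 402; relative to control it was 2.74 with LPS (adjusted p = 6e-22) and -0.79 with IFNg (adjusted p = 5.95e-11). Tlr8 and Tlr7, sensors of single-stranded RNA, showed the same order, with 11781 ± 1045 with LPS, 1383 ± 86.9 with IFNg and 6158 ± 327 in control cells for Tlr8 and 24755 ± 2751 with LPS, 3804 ± 309 with IFNg and 6769 ± 331 in control cells for Tlr7. Tlr2, a receptor for bacterial lipoproteins, had 52853 ± 1966 with LPS and 5615 ± 48.1 with IFNg. Tlr4, the LPS receptor gene, had 3313 ± 357 with LPS and 3447 ± 125 with IFNg and was not called (adjusted p = 0.666), and its partner Ly96 differed by 1.08. Under equal totals Tlr4 was called lower (-0.39). Tlr9, which senses DNA, was lower with LPS at 701 ± 52.6 with LPS and 2139 ± 74.9 with IFNg. Tlr12, a mouse receptor for parasite profilin that was not in the list, had no read in the 3 LPS libraries, against 221, 172 and 186 with IFNg, at least 98.3-fold higher with IFNg when 3 reads over the LPS group are taken as the floor.

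Inflammasome genes were split by sensor. Of 23 genes for inflammasomes and cell death, 13 were higher with LPS and 6 lower (median 0.62). Nlrp3, the sensor that matures Il1b protein, had 31249 ± 343 with LPS, 7717 ± 171 with IFNg and 486 ± 13 in control cells; Aim2, a DNA sensor, and Casp1, the protease itself, were higher with LPS by 1.79 and 1.15. Nlrp1b, a sensor of bacterial proteases, had 76.3 ± 24.9 with LPS, 917 ± 51 with IFNg and 734 ± 22 in control cells, and Bcl2, an inhibitor of apoptosis, had 26.7 ± 5.49 with LPS, 279.8 ± 14.4 with IFNg and 120.4 ± 24.8 in control cells: in both, the LPS libraries were below control and the IFNg libraries above it. The kinase Ripk3 and the sensor Nlrc4 were on the IFNg side, at -1.48 and -1.01.

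Genes of prostaglandin and leukotriene synthesis lay on both sides, with 10 of 18 higher with LPS and 4 lower (median 0.68). Ptgs2, the inducible prostaglandin synthase, had 126935, 120203 and 142030.5 with LPS, against 19815, 21547 and 21371 with IFNg, with control at 25.3 ± 20.4. The difference was 2.63 ± 0.26 (adjusted p = 9e-09). Ptges, which completes prostaglandin E, had 4053 ± 318 with LPS, 171 ± 11.6 with IFNg and 16.4 ± 7.24 in control cells, a larger difference of 4.56 ± 0.24. Against them, Tbxas1, the thromboxane synthase, and Pla2g7, which degrades platelet-activating factor, were lower with LPS at 1185 ± 52.3 with LPS and 3259.6 ± 31.6 with IFNg and 1799.8 ± 143 with LPS and 6555 ± 102 with IFNg.

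Nos2, the inducible nitric oxide synthase, had 64219.8, 61389 and 54884 with LPS, against 31031, 28245 and 30751 with IFNg, with control at 21.5 ± 15.8. The difference was 1.00 ± 0.27 (adjusted p = 0.00389), and the level was above control with both agents. Slc7a2, the arginine importer that feeds it, had 48743 ± 4174 with LPS, 4763 ± 142 with IFNg and 355 ± 41.5 in control cells, a difference of 3.35 ± 0.09, and Gch1, which makes its cofactor, differed by 1.67. Arg1, the competing arginase, was low in both groups at 34.1 ± 9.65 with LPS and 12.7 ± 4.25 with IFNg; its call (adjusted p = 0.0232) was lost in 5 of 18 alternatives, 3 of which left out a library. Of 18 genes of this list, 10 were higher with LPS and 3 lower.

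Metabolic genes showed local differences in lists that moved little. Irg1, which encodes the itaconate-making enzyme now called Acod1, had 255547 ± 3239.7 with LPS, 108035 ± 1147 with IFNg and 105 ± 58 in control cells, and Idh1, an isocitrate dehydrogenase, had 1697 ± 120.5 with LPS, 724 ± 5.51 with IFNg and 11076 ± 716 in control cells, below control with both agents. Of the 24 itaconate and TCA cycle genes, 9 were higher with LPS and 2 lower, with a median of 0.028. That is 45.8% called, against 38.3% of all genes. The share was larger among protein-coding genes alone, with 3395 of 14167 called higher and 3250 lower. Pfkfb3, which drives glycolytic flux, had 24795 ± 412 with LPS, 3432 ± 60.4 with IFNg and 815 ± 32.5 in control cells, while Pfkp, a subunit of the phosphofructokinase it stimulates, had 9347 ± 93 with LPS, 24319.7 ± 447 with IFNg and 2325 ± 49.9 in control cells. Of the other subunit genes, Pfkl was higher with LPS by 0.62 and Pfkm, at -0.37, was not called. Adm, a hypoxia-inducible peptide gene, and Ddit4, an inhibitor of mTOR signalling, differed by 5.59 and 2.53, and Slc2a1, a glucose importer, by 1.09. The 30 glycolysis and HIF-1 genes had 13 higher and 6 lower (median 0.30, turning to -0.021 under equal totals), and the 36 nuclear genes of oxidative phosphorylation 4 higher and 5 lower, 25.0% called in all against 38.3% of all genes.

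In lipid and iron handling, Abca1, the cholesterol exporter, had 8099 ± 393 with LPS, 1638 ± 49 with IFNg and 6195 ± 452 in control cells, whereas Abcg1, its partner exporter, had 1996 ± 137 with LPS, 6009 ± 92.6 with IFNg and 7344 ± 686 in control cells: the LPS libraries were the highest for the first and the lowest for the second. Ch25h, which makes the antiviral oxysterol, had 5303 ± 217 with LPS, 423 ± 29.7 with IFNg and 6.66 ± 5.46 in control cells. Mylip, which degrades the LDL receptor, and Scd2, a fatty acid desaturase, were on the IFNg side, at -2.85 and -2.71. Slc7a11, the cystine importer of glutathione synthesis, had 3590.1 ± 126 with LPS, 249 ± 24.2 with IFNg and 59.3 ± 3.02 in control cells, and Slc40a1, the iron exporter ferroportin, had 23.8 ± 7.22 with LPS, 224 ± 17.4 with IFNg and 1385 ± 57.5 in control cells, below control with both agents.

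Surface receptors for antibody lay on both sides, with 2 of the 4 Fc gamma receptor genes higher with LPS and 2 lower; in the wider list of 8, which adds the shared chain Fcer1g, the neonatal receptor Fcgrt and the IgE receptor genes Fcer1a and Ms4a2, 4 were higher and 2 lower. Fcgr4 (ENSMUSG00000059089, chromosome 1, bases 171018920 to 171029761, plus strand) and Fcgr3, activating receptors for IgG, were lower with LPS: Fcgr4 had 6363, 6258 and 6977 with LPS, against 27181, 27906 and 27889 with IFNg, a difference of -2.08 ± 0.06 (adjusted p = 1.43e-18), and Fcgr3 had 10332 ± 267 with LPS and 31339 ± 1119 with IFNg. Fcgr2b, the inhibitory receptor, was higher with LPS at 29874 ± 1212 with LPS and 13633 ± 325 with IFNg, and so was Fcgr1, the high-affinity receptor, at 19846 ± 405 with LPS and 11267 ± 307 with IFNg. Among 18 complement genes, 10 were lower with LPS and 5 higher (median -0.62). The protease C1s1 and the component C4b differed by -4.21 ± 0.32 and -2.72 ± 0.81, C3, the central component, had 44952 ± 1702 with LPS, 78002 ± 2112 with IFNg and 611 ± 61.9 in control cells, and C1qa, part of the recognition unit, had 6828 ± 1258 with LPS and 13077 ± 954 with IFNg. The receptors for the released fragments stood on the other side: C5ar1 had 15734 ± 892 with LPS, 3687 ± 118 with IFNg and 11028 ± 332 in control cells, and C3ar1 had 42609 ± 2933 with LPS, 11899 ± 509 with IFNg and 44560.3 ± 1671 in control cells.

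Ligands that T cells read lay on both sides. Pdcd1lg2, the second ligand of the inhibitory receptor PD-1, had 0, 3.8 and 7.14 with LPS, against 206, 216 and 219 with IFNg, whereas Cd274, the first ligand, had 82776 ± 5969.6 with LPS and 87637 ± 2641 with IFNg and was not called (interval -0.20 to 0.034). Cd40 was likewise not called, with 44303 ± 541 with LPS, 39930.4 ± 1148 with IFNg and 53.9 ± 14.6 in control cells. Cd274 was called lower with library weights and under equal totals, and Cd40 was called with DESeq2. Cd86 had 3619 ± 327 with LPS and 5837 ± 176 with IFNg and Cd80, which binds the same costimulatory receptor, had 533 ± 39.3 with LPS and 286 ± 38 with IFNg, so these lay on opposite sides (-0.69 and 0.90). Tnfsf4, the OX40 ligand, had 791, 812 and 1063 with LPS, against 16.1, 17.7 and 14.6 with IFNg, a difference of 5.69 ± 0.46, and Slamf8, a receptor that dampens macrophage migration, had 3922 ± 60.8 with LPS and 26174 ± 697 with IFNg. Of 21 genes, 12 were higher with LPS and 5 lower.

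Receptors for migration and clearance also separated the groups. Ccr2, which brings monocytes out of the marrow, had 113 ± 8.46 with LPS, 1529 ± 139.8 with IFNg and 583 ± 41.5 in control cells, on opposite sides of control. Marco, a scavenger receptor for particles, had 9.53 ± 10.2 with LPS and 125 ± 3.62 with IFNg, and Mertk, which engulfs dying cells, had 1177 ± 44 with LPS, 3837 ± 151 with IFNg and 2090.0 ± 71.3 in control cells. Msr1, another scavenger receptor, had 44329 ± 3847 with LPS, 6799 ± 441 with IFNg and 1824 ± 216 in control cells, and Siglec1, a sialic acid receptor, had 4212 ± 326 with LPS, 977 ± 74.4 with IFNg and 2504 ± 260.0 in control cells. Among 20 matrix protease and inhibitor genes, 13 were higher with LPS and 4 lower (median 1.36). Adamts4, a proteoglycan-cleaving protease, had 964 ± 59.3 with LPS and 9.48 ± 2.44 with IFNg, and Mmp13, a collagenase, had 37859 ± 4933 with LPS and 2094 ± 206 with IFNg, while Plau, the plasminogen activator, was lower with LPS at 3918 ± 200.3 with LPS and 7962 ± 217 with IFNg.

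Several of the largest differences towards IFNg were in genes outside the lists. Cnr2, the cannabinoid receptor of immune cells, had 4.08, 4.43 and 8.33 with LPS, against 1573, 1511 and 1495 with IFNg, and control cells had 1074 ± 51.7. The IFNg and control levels differed by 0.51 (adjusted p = 0.297), and the LPS libraries held 15 reads in all, a difference of -7.91 ± 0.37 from IFNg. Serpina3g, a protease inhibitor of activated immune cells, had 587, 477 and 603 with LPS, against 42394, 41546 and 42429 with IFNg, a 75.8-fold higher mean with IFNg, with control at 8.92 ± 7.26. Rnase6, an antimicrobial ribonuclease, and Dnase1l3, a secreted nuclease, had 5.76 ± 2.5 with LPS and 1133 ± 13.7 with IFNg and 17.6 ± 4.09 with LPS and 1132 ± 72.7 with IFNg. Ubd, a ubiquitin-like modifier, and Vdr, the vitamin D receptor, had 11.4 ± 8.63 with LPS and 869.5 ± 35.3 with IFNg and 6.27 ± 1.91 with LPS and 607 ± 17.7 with IFNg.

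Clec9a and Xcr1, which mark cross-presenting dendritic cells, were also higher with IFNg: Clec9a had 0, 3.8 and 7.14 with LPS, against 602, 717 and 634 with IFNg, and Xcr1 0, 3.17 and 1.19 with LPS, against 141, 115 and 123 with IFNg. Control cells had 6.08 ± 2.57 for Clec9a. Of the 9 dendritic cell markers tested, 4 were lower with LPS, 4 were not called and Fscn1, an actin-bundling protein, was higher with LPS by 1.87. Flt3, a further marker in the list of 12, had no read in the 6 libraries, and the list summed to between 300 and 435 with LPS and between 992 and 1074 with IFNg; its part in the result was not tested. Bcl2l14 and Gja4, a gap junction subunit, had no read in the LPS libraries, against 167, 197 and 198 and 205, 159 and 178 with IFNg, at least 95.1-fold and at least 92-fold higher with IFNg against 3 reads over the group. Towards LPS, genes outside the lists were Shisa3, with 975 ± 95.6 with LPS and 5.86 ± 1.15 with IFNg, and Plet1, a surface protein of epithelial and dendritic cells, with 183, 152 and 142 with LPS, against 2 reads in the 3 IFNg libraries.

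The 250 bases before the start of Serpina3g, chr12:104235897-104236146 on the plus strand, are shown as an example from the IFNg side that holds an NF-kB consensus match, 85 bases before the start, and a GAS match, 33 bases before it.
Serpina3g: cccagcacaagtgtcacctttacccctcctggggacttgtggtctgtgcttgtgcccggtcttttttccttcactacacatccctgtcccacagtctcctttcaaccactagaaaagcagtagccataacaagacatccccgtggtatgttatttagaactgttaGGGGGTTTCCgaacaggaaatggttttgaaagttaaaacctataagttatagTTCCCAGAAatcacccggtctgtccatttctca

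Over all genes with a RefSeq window of 300 bases (250 before to 50 after the start; 12014 of the 18637 genes), the shares with a motif on either strand were 10.0% for the NF-kB consensus, 7.03% for GAS and 3.30% for ISRE. Among 149 windows of genes called higher with LPS by at least 3 (log2), 15.4% held the NF-kB consensus, 12.8% GAS and 12.1% ISRE. Among 96 windows of genes called lower by at least 3, 8.33% held the NF-kB consensus, 12.5% GAS and 5.21% ISRE. At a difference of at least 1, the shares were 11.8%, 7.19% and 7.47% of 1098 windows on the LPS side, and 10.7%, 9.33% and 2.78% of 1007 windows on the IFNg side. These shares are descriptions without a test, and a match is not evidence of binding. The windows of Il1b, Tnf, Ptgs2, Cxcl9, Cnr2 and Clec9a held none of these letters.

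Part of the table differed little between the agents. For 7639 genes (41.0%) the 95% interval of the difference lay within 2-fold in either direction. No minimum level was set, so genes with few or no reads in both groups can be among them. On the 6 libraries alone, 15539 of the 18637 genes would have passed the filter. Among the 7639, some had a mean at least 8 times control with both agents. Those with the highest counts were the gene listed as Gbp5 (Gbp2b in GENCODE M21), Samhd1, Cd274, Icam1, C3, Irgm1, Ctsc and Ifi47. Lying within 2-fold, Samhd1, C3, Irgm1 and Ctsc were still called lower with LPS and Icam1 higher, while Gbp5, Cd274 and Ifi47 were not called. Under equal totals Icam1 was no longer called (0.055), and Cd274 and Ifi47 were called lower. Cd274 was also called lower with library weights. Icam1, the adhesion molecule for leukocyte integrins, had 89575 ± 4225 with LPS, 68857 ± 1203 with IFNg and 502 ± 29.1 in control cells. Samhd1, which depletes nucleotides against viruses, had 70387 ± 2168 with LPS, 112942 ± 3308 with IFNg and 7912 ± 402 in control cells, and Ctsc, which activates granule proteases, had 39101 ± 2947 with LPS, 60338 ± 2469 with IFNg and 3069.8 ± 207 in control cells. The gene listed as Gbp5 and Ifi47, both interferon-induced GTPases, had intervals of -0.10 to 0.41 and -0.24 to 0.10.

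The same comparison was made in the 6 LPS and IFNg libraries of macrophages lacking CITED2. Both contrasts come from the fit of all 24 libraries and share its estimate of the spread. Cited2 had 94.5, 21.5 and 30 in KO LPS and 11.9, 10.2 and 18.7 in KO IFNg libraries, against 3139, 3468 and 4174 in WT LPS and 2308, 2623 and 2383 in WT IFNg libraries. In KO cells 3682 genes were called higher with LPS (19.8%) and 4300 lower (23.1%). Of the 3586 genes called higher in WT cells, 79.1% were called higher in KO cells too, and of the 3544 called lower, 78.2% were called lower; 34 and 43 were called in the opposite direction. Taken from the KO calls, 77.1% of the genes higher and 64.5% of the genes lower were called the same way in WT cells. KO LPS replicate 1 held 1478507 reads, so that 1 read was worth 23.6 there.

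The contrast itself differed between genotypes for 704 genes in the positive (3.78%) and 686 in the negative direction (3.68%), together 7.46% of all genes. Irf8 showed the difference plainly: it had 33666, 30370.3 and 33398 with LPS and 61769.7, 54603 and 56440.1 with IFNg in KO cells, against 7757, 7449 and 7357 with LPS and 37819.9, 36113 and 37519 with IFNg in WT cells. The LPS-minus-IFNg difference was -0.83 in KO and -2.30 in WT cells, and the difference between them was 1.48 ± 0.08 (adjusted p = 4.8e-12, limma; 1.45 without KO LPS replicate 1). Cxcl9 had 24567 ± 1449.7 with LPS and 209272 ± 5759 with IFNg in KO cells, so its difference was -3.09 there, 3.10 ± 0.43 above that in WT cells (adjusted p = 2.63e-05). Gbp4 and Serpina3g, also IFNg-side genes, moved the same way, by 2.02 ± 0.36 and 2.62 ± 0.46, and Irf1 by 0.79 ± 0.08. Cxcl9 and Serpina3g met the rule for the largest WT differences, so part of their change can come from that choice.

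In the other direction, Tgfbi, an extracellular matrix protein, had 495 ± 64.7 with LPS and 2405 ± 76.3 with IFNg in KO cells, against 4727 ± 102 with LPS and 3308 ± 196 with IFNg in WT cells, a difference between genotypes of -2.80 ± 0.12 (adjusted p = 1.33e-13). Sla, an adaptor that dampens receptor signals, changed by -2.04 ± 0.20, and Ptges by -1.66 ± 0.33. Il10 had 1499.9 ± 78 with LPS and 3.55 ± 1.72 with IFNg in KO cells, and its difference changed by -2.45 ± 0.68 (adjusted p = 0.026); the call held in 17 of 23 alternatives. Il23a had 425, 405 and 483 with LPS and 0, 0 and 0 with IFNg in KO cells, and its difference changed by 4.03 ± 0.56 (adjusted p = 2.73e-05), with 1 read in the WT IFNg libraries. Il6, Il1b, Ccl3 and Cxcl1 had differences of 8.64, 9.64, 8.31 and 8.09 in KO cells, against 7.96, 10.35, 8.31 and 8.31 in WT cells, and the difference between genotypes was not called for them (adjusted p of 0.638, 0.411, 0.996 and 0.843).

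**Figure D4:**
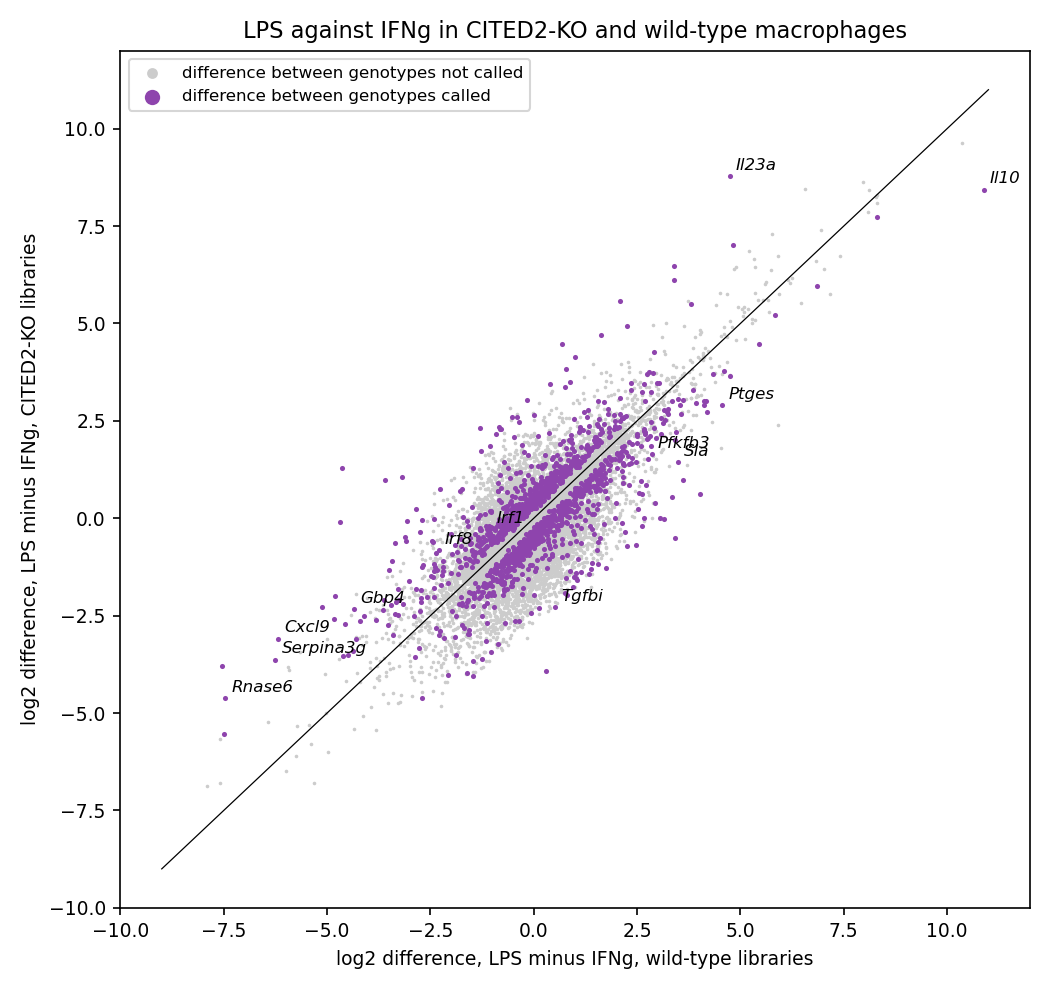
Each point is 1 of the 18637 genes; the horizontal axis gives its log2 difference, LPS minus IFNg, in WT libraries and the vertical axis the same in KO libraries, with the line of equality. Purple marks the 1390 genes whose contrast differed between genotypes at an adjusted p below 0.05; Irf8, Cxcl9, Gbp4 and Serpina3g lie above the line and Tgfbi, Sla, Ptges and Il10 below it.

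The remaining lists held members on both sides with medians near 0. Of 30 macrophage identity genes, 17 were higher with LPS and 9 lower; Csf1r, the growth factor receptor of the lineage, had 34629.6 ± 1718 with LPS and 49623 ± 2042 with IFNg, and Cd68, a lysosomal glycoprotein, had 45764 ± 4015 with LPS and 35880.0 ± 748 with IFNg. The lysosome list had 10 higher and 13 lower of 31, the lipid handling list 12 and 10 of 28, the NRF2 list 9 and 5 of 19, the sterol synthesis list 8 and 7 of 25, and the unfolded protein list 6 and 5 of 25. In that last list Hspa5, the main chaperone of the endoplasmic reticulum, had 36057 ± 2228 with LPS, 12478 ± 769 with IFNg and 17482 ± 959 in control cells. The cell cycle list had 11 higher and 7 lower of 39, and the chemokine receptor list 4 and 4 of 13. The cell cycle and unfolded protein lists had 46.2% and 44.0% called, against 38.3% of all genes. That share was larger among protein-coding genes alone, with 3395 of 14167 called higher and 3250 lower, so these lists do not stand out. Under equal totals the medians of the macrophage identity, lipid handling, NRF2, unfolded protein, cell cycle and chemokine receptor lists were below 0.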

How the data were processed

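Whole-transcriptome RNA sequencing gave 24 libraries in 8 groups of 3, by genotype and treatment label. The deposited values are a signal per gene, read counts that the authors divided by 1 factor per library; the values themselves show this, since 100% were whole multiples of a library's step within 0.05 reads. The submitters' processing notes name TopHat2, Cufflinks 2.2.1, Cuffdiff and builds mm10 and GRCm38; the counting rule and strand setting are not given in the sources used here. Reads per library ran from 1478507 to 73409343, and replicates differed by more than sampling noise. Floors of 3 reads cover counting error only. Gene names are the deposited symbols, and gene positions came from GENCODE M21, which held 42462 of the 43629 identifiers.

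limma 3.58.1 in R 4.3.3 was fitted to log2(value + 1) of 18637 genes, with 1 mean per group, 16 residual degrees of freedom, a mean-variance trend and two-sided Benjamini-Hochberg adjusted p-values. On simulated data for the WT contrast over 18637 genes it recovered 93% of genes changed by 1 (log2), 100% of those changed by 2, and made 0.0434% false calls. The simulation changed 100 genes of each size, none of them low, with as many up as down. Every gene had the same spread and all groups otherwise had the same means. These rates therefore need not hold for low genes or for the wider changes of the real data. edgeR 4.0.16 and DESeq2 1.42.0 were run on the recovered reads as alternatives, beside other pseudocounts, filters, scalings, library sets and left-out libraries. The comparison, the 30 pathway lists, the 8 cell type lists and the tests were chosen with earlier results of these data known. Genes were named as hallmark genes, the 12 largest called differences in each direction without overlap, up to 4 members per list and direction, the 5 largest genotype differences in each direction and the 8 shared genes with the highest counts; further list members and neighbouring genes were named with their values known. Results on a few genes are not reported here.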

Additional observations from a re-analysis of the deposited data

Results flagged for a closer look

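For 59 of 174 genes named above, the LPS-minus-IFNg difference was not the same in KO and WT macrophages by the test of that difference (limma, adjusted p of 0.0457 or lower). Values below are the log2 difference in KO cells minus that in WT cells. It was positive for 34 genes and negative for 25. The call was kept in every one of 23 alternatives for 40 genes, and the fewest alternatives that kept it were 9, for Fcgr2b, which was also the 1 gene not called without the shallow KO LPS replicate 1. Of all genes, 7.46% were called. Some of the named genes were chosen for a large genotype difference, so their share cannot be set against that of all genes.

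Among genes on the IFNg side in WT cells, where a positive value means that the agents lay closer together in KO cells, the values were 3.10 for Cxcl9, 3.77 for the Bcl2 relative Bcl2l14, 2.85 for Rnase6, 2.62 for Serpina3g, 1.97 for Gja4, 1.73 for Mertk, 1.48 for Irf8 and 0.79 for Irf1. Without KO LPS replicate 1, Bcl2l14 had 2.42 (adjusted p = 0.0102) and Rnase6 1.75 (adjusted p = 0.00361). Cxcl9, Bcl2l14, Rnase6, Serpina3g and Gja4 met the naming rule for the largest WT differences. The genotype value subtracts that same WT difference, so part of it can come from the choice of genes. Of the GTPases, Gbp4 had 2.02, Iigp1 1.44, Gbp2 0.59 and Irgm1 0.49. The complement and receptor genes C1s1, C3, Slamf8, Cd86 and Fcgr4 had 1.57, 0.56, 0.58, 0.68 and 0.42, and the enzyme genes Tbxas1 and Pfkp 0.51 and 0.29.

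Positive values among the remaining genes were 4.03 for Il23a, 2.61 for Ifnb1, 2.00 for Cxcl11, 1.23 for Cd80, 0.99 for C5ar1 and 0.89 for Tnf. Smaller ones were 0.54 for Icam1, 0.53 for Cd274, 0.50 for Ifih1, 0.46 for Tlr4, 0.45 for Stat5a, 0.43 for Gbp3, 0.39 for Ifi47, 0.33 for Zbp1 and 0.29 for Nlrp3.

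Negative values were -2.80 for Tgfbi, -2.68 for Arg1, -2.45 for Il10, -2.04 for Sla, -1.66 for Ptges, -1.20 for Pfkfb3 and -1.16 for Mmp13. Il10, and Ccl4 below, met the rule for the largest WT differences towards LPS, and the same limit holds for them. Chemokine and interferon genes had smaller ones, -0.88 for Cxcl2, -0.56 for Ccl4, -0.74 for Irf7, -0.60 for Rsad2, -0.34 for Ddx58, -0.39 for Ifnar1 and -0.40 for H2-T22. The lipid exporter Abca1 had -0.92, the receptor C3ar1 -0.85, the factors Cebpa and Cebpb -0.71 and -0.57, and the importers Slc7a11 and Slc2a1 -0.55 and -0.39. Msr1, Tlr8 and Tlr2 had -0.53, -0.52 and -0.51, Gch1 -0.32 and Fcgr2b -0.24.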

How the results depend on the processing

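The WT contrast called 3586 genes higher and 3544 lower. Scaling to equal totals, added after the totals were seen to differ, gave 2129 and 6207; other alternatives stayed within 1.5 times of both counts. Leaving out 1 library gave 3210 to 3456 higher and 3082 to 3443 lower. Deviations of same-numbered LPS and IFNg libraries had r of 0.108, -0.263 and 0.0358, and those of differently numbered ones ran from -0.318 to 0.337. With 3 libraries per group these values cannot decide whether replicate numbers pair the libraries. The fit with a replicate block called 3428 and 3410. In KO cells, against 3682 higher and 4300 lower, equal totals gave 1981 and 7653, and the compared groups alone gave 2586 lower; leaving out 1 library gave 3404 to 4267 and 3894 to 4699. The genotype difference, with 704 positive and 686 negative genes, had 1191 positive with library weights, 372 negative with the compared groups alone, 1363 negative with equal totals and 1073 negative without KO LPS replicate 2; left-out libraries spanned 531 to 948 positive and 525 to 1073 negative. The count of genes within 2-fold, 7639, stayed within 1.5 times in the 12 alternatives for which it was made. It was not made with other pseudocounts, other filters, edgeR or DESeq2. Over the 248 genes of the naming rule, 4344 gene-by-alternative results kept their side of the threshold, 93 lost the call, 20 gained it and 5 called genes changed sign, under equal totals: Igtp (-0.046), Gbp3 (-0.111), Cox6c (-0.0886), Uqcrc1 (-0.0904) and Pdia6 (-0.036). Uncalled genes also turned under equal totals, as Cd40 and the gene listed as Gbp5 (-0.17 each). Some turned without 1 LPS library, as Cxcl11 and Tlr4, whose differences ranged from -0.22 to 0.28 and from -0.39 to 0.014. Of the list counts and medians, 1899 results stayed and 153 moved. The cause of these changes was not tested. DESeq2 gave no adjusted p for 2891 genes. Genes of a few reads, as Il10 or Il23a with IFNg, are limited by depth.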

Other observations

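Markers of other cell types were also summed per library. Mast cell and basophil markers summed to between 1221 and 1341 with LPS and between 183 and 221 with IFNg, against 363 to 396 in control cells. Of 8 tested, 3 were called higher with LPS and 5 were not called, against 19.2% of all genes called higher. Nearly all of the LPS sum was Hdc, the enzyme that makes histamine, which averaged 1133 with LPS and 78.3 with IFNg (difference 3.85, adjusted p = 3.14e-08, limma), while the defining mast cell genes Mcpt4, Tpsab1, Tpsb2 and Cma1 had no read in the 6 libraries. Fibroblast markers summed to between 1381 and 1504 with LPS and between 850 and 974 with IFNg. Here 4 of 12 tested were called higher with LPS and 8 were not called. The member that separated the groups most was Pdgfrb, a growth factor receptor, with a mean of 275 with LPS, 17.2 with IFNg and 23.7 in control cells (difference 3.93, adjusted p = 1.88e-08).

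Neutrophil markers summed to between 8440 and 8873 with LPS and between 5740 and 6080 with IFNg. Most of this was Csf3r, the receptor for granulocyte growth factor, with means of 5954 with LPS and 3702 with IFNg. Of 15 tested, 3 were called higher with LPS, 1 lower (Cxcr2, -1.63) and 11 were not called. Of all genes, 19.2% were called higher and 19.0% lower. Erythroid markers summed to between 6081 and 7422 with LPS and between 4431 and 4935 with IFNg, nearly all of it Tfrc, the transferrin receptor, at 6721 with LPS and 4609 with IFNg; the globin genes of the list had no read in the 6 libraries. B cell markers summed to between 11.9 and 12.7 with LPS and between 16.7 and 18.8 with IFNg. The part of such cells in the results was not tested.

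Yam1, a long noncoding RNA gene named here after its values were seen, had 502083, 190043 and 111535 with LPS, against 117932, 162377 and 171141 with IFNg and 278243, 179934 and 225467 in control cells. In LPS replicate 1 it held 1.55% of all reads, and the 3 LPS libraries spread over a wider range than the IFNg or control libraries.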
